A study of Homo sapiens with 32 samples.

Results

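HGrC1 cells kept for 6 weeks in 1 µM perfluorooctane sulfonate (PFOS) were compared directly with cells of the same line kept for 6 weeks in 0.1 µM PFOS. The members were taken by their sample labels alone, 4 libraries at each concentration, 8 of the 32 libraries of the series. HGrC1 was immortalized from human granulosa cells that had not luteinized, so every library derives from a single line. Cells from 4 separately frozen vials were the replicates, and each vial was divided into 4 flasks that received vehicle (0.05% DMSO) or PFOS at 0.01, 0.1 and 1 µM, renewed at each passage. All groups grew in medium with 10% fetal bovine serum. For the hormone that was added to all of them, the labels state 100 nM estradiol and the methods state testosterone at that concentration. The 4 vehicle controls and the 4 libraries at 0.01 µM of 6 weeks enter the main test through the estimate of the spread. They and the libraries of 12 weeks are also used below for reference. The comparison asks which mRNAs differ between neighbouring concentrations without going through the control. Whether a response rises with the dose can be read only with the control and 0.01 µM beside it.

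Granulosa cells surround the oocyte, convert androgens to estrogens and answer to hormones, growth factors and cytokines through a shared set of quickly induced genes. Among these are transcription factors of the FOS, EGR and NR4A families, which are themselves induced within minutes to hours, and feedback genes that shorten the signal. NFKBIA and TNFAIP3 are such brakes for NF-kappaB, a transcription factor of inflammation, and dual-specificity phosphatases are brakes for MAP kinases. PFOS is a persistent fluorinated surfactant that is found in human serum and follicular fluid.

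After 6 weeks, 11 of 12836 tested genes differed between 1 and 0.1 µM PFOS, a share of 0.0857%, and all 11 were higher at 1 µM. They were C11orf96, ZNF331, ANKRD33B, HEYL, NEDD9, ARID5B, NFKBIA, TUFT1, AVPI1, TSC22D1 and ETS1. A gene was called at an adjusted p of at most 0.05 in edgeR's quasi-likelihood test with Benjamini-Hochberg adjustment. The differences were small, from 16.97 to 45.6% of the mean at 0.1 µM, and none of the 11 genes reached 2-fold. No gene was lower at 1 µM in this test, although 388 genes (3.02%) were lower and 414 (3.23%) higher at an unadjusted p under 0.05, 6.25% of the tested genes together. With DESeq2 on the same 16 libraries of 6 weeks 20 genes were higher and 5 lower, and 2 genes reached 2-fold, NR4A3 and LOC124900993.

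The number of calls depended on single libraries and on the use of the vials. Without the 0.1 µM library of vial 2 there were 4 genes higher, without that of vial 3 there were 6, and without the 1 µM library of vial 4 there were 18. In the fit of all 32 libraries, which shares 1 estimate of the spread over both times, 2 genes were higher, ARID5B and TUFT1. With the vial as a block in the fit, 19 genes were higher (0.148%) and 4 lower (0.0312%), 0.179% of the genes together, and all 11 genes remained called. With the block and only the 8 libraries of both concentrations, 57 genes were higher (0.449%) and 19 lower (0.15%), 0.599% together, again with all 11 among them. The calls of ARID5B and TUFT1 held under each of the 18 alternatives run, whereas ETS1 lost its call under 10 of them and NEDD9 under 8.

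Most tested genes were nearly level between these concentrations. The median log2 fold change (log2FC) of 1 over 0.1 µM was −0.00062, the median size of the log2FC regardless of sign was 0.0469, and 49.7% of genes lay above 0. In a principal component analysis of the 8 libraries, the 1 µM library of vial 2 (at 20.4) and the 0.1 µM library of vial 1 (at −14.8) stood apart on the first axis, which held 20.3% of the variance, while the other libraries lay between −3.46 and 2.82. Total counts lay between 17907057 and 17998837 at 0.1 µM and between 17944140 and 18107433 at 1 µM, so depth differed little.

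**Figure D1:**
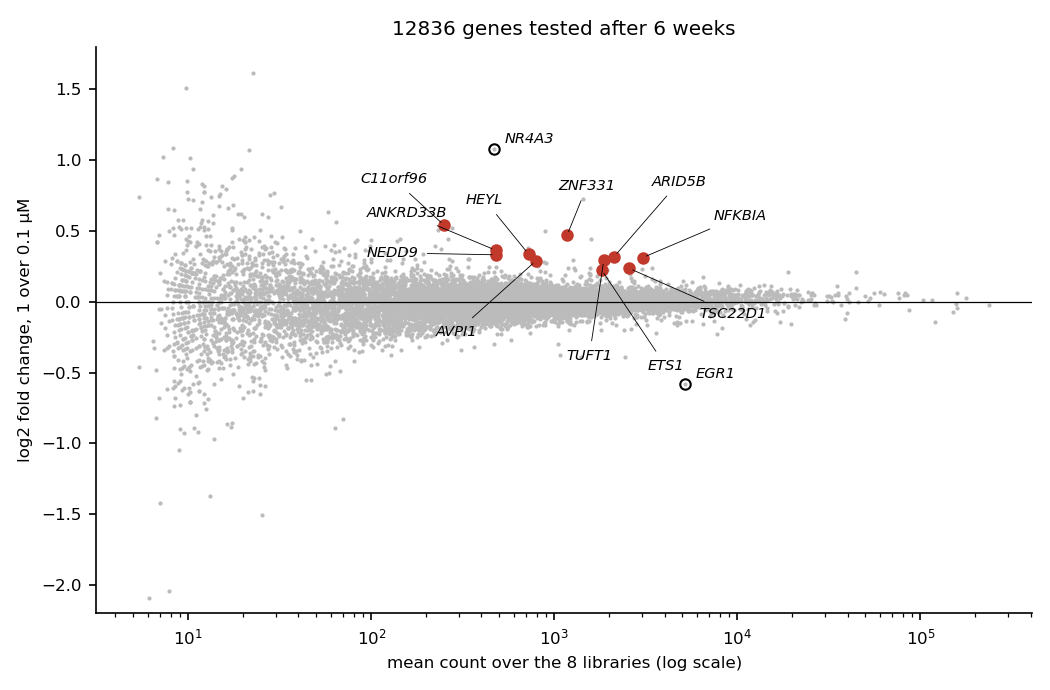
Log2 fold change of 1 over 0.1 µM PFOS after 6 weeks (vertical axis) against the mean count over the 8 libraries (horizontal log axis) for the 12836 genes tested. Red points are the 11 called genes, all above 0, and open circles mark NR4A3 and EGR1, which were not called; 1 gene with a log2 fold change of −7.16 lies under the axis.

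On GRCh38.p14, RefSeq places ARID5B at chr10:61901699-62096944, HEYL at chr1:39623435-39639643, ZNF331 at chr19:53503235-53580269, ETS1 at chr11:128458765-128587558, TSC22D1 at chr13:44432143-44577344, NFKBIA at chr14:35401513-35404749. It places NEDD9 at chr6:11183298-11382348, TUFT1 at chr1:151540309-151583583, AVPI1 at chr10:97677424-97687241, C11orf96 at chr11:43942637-43943878 and ANKRD33B at chr5:10564070-10657816. None of the 11 overlaps another gene that has values in the files, so their counts are not shared with a neighbour.

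Of the 11 called genes 5 code for proteins that take part in the control of transcription, namely ARID5B, HEYL, ZNF331, ETS1 and TSC22D1. ARID5B is a DNA-binding protein of the ARID family that acts as a coactivator. Its libraries at 0.1 µM held 103.3, 98.6, 105.9 and 112.3 CPM (counts scaled to the size of the library), in the order of vials 1 to 4, and those at 1 µM held 134.1, 131.8, 132.3 and 126.4. The lowest library at 1 µM lay above the highest at 0.1 µM, with a log2FC of 0.32 (SE 0.037, n = 4 each, edgeR adjusted p = 4.93e-05). This was the smallest p of all genes tested.

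HEYL is a repressor of the hairy family and a target of Notch receptors. It stood at 31.98, 36.7, 36.1 and 37.3 CPM at 0.1 µM and at 45.6, 49.4, 43.8 and 40.6 CPM at 1 µM, with no overlap and a log2FC of 0.34 (SE 0.055, edgeR adjusted p = 0.00496). JAG1, a ligand of Notch receptors, stood at 6.75 ± 0.61 CPM at 0.1 µM and 9.18 ± 1.38 at 1 µM (SD, n = 4). It was not called in the fit without the block, was called with the vial as block (edgeR adjusted p = 0.0492), and its lowest library at 1 µM, 7.36 CPM, lay within the range at 0.1 µM. JAG1 was named after its value was seen.

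ZNF331 is a KRAB zinc finger protein. Its 4 values at 0.1 µM were 55.4, 50.6, 53.2 and 59.5 CPM, and at 1 µM they were 77.8, 79.0, 74.1 and 71.8 CPM. The ranges did not overlap, with a log2FC of 0.47 (SE 0.073, edgeR adjusted p = 0.00961). ETS1, the founding member of the ETS transcription factors, stood at 91.1, 92.8, 93.0 and 94.0 CPM at 0.1 µM and at 104.8, 120.1, 109.5 and 99.5 CPM at 1 µM. Its log2FC of 0.23 (SE 0.045, edgeR adjusted p = 0.0341) was the smallest among the called genes. Leaving out any 1 of the 8 libraries ended its call, except for the 1 µM library of vial 4, with adjusted p up to 0.263 over the alternatives.

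TSC22D1 codes for a leucine zipper protein first known as a transcript induced by TGF-beta. It rose from 125.8, 125.4, 138.2 and 131.2 CPM at 0.1 µM to 151.3, 159.1, 152.8 and 150.6 CPM at 1 µM, without overlap. The log2FC was 0.24 (SE 0.042, edgeR adjusted p = 0.00961). It was the only 1 of 18 tested members of a list of SMAD response genes that was called, and the list's median log2FC was 0.0074, beside −0.00062 for all genes tested. ID1, an inhibitor of helix-loop-helix factors and a SMAD target of the same list, lay the other way, at 134.6 to 148.6 CPM at 0.1 µM and 119.2 to 128.7 CPM at 1 µM, without overlap. It was not called in the fit of 16 libraries (log2FC −0.20, SE 0.092, edgeR adjusted p = 0.788) and was called lower with the block and 8 libraries (edgeR adjusted p = 0.00219). The ID1 means were 171.4 CPM in the control, 164.6 at 0.01 µM, 142 at 0.1 µM and 124 at 1 µM. No PFOS group was called against the control for ID1, which was named after its value was seen.

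NFKBIA codes for IkappaB-alpha, which holds NF-kappaB in the cytoplasm and is itself switched on by NF-kappaB. At 0.1 µM its libraries held 141.0, 141.8, 162.2 and 156.9 CPM, and at 1 µM 189.2, 182.3, 192.7 and 183.1 CPM. Every library at 1 µM thus stood above every library at 0.1 µM, with a log2FC of 0.31 (SE 0.048, edgeR adjusted p = 0.00496). Per transcript length NFKBIA was the most abundant of the 11 genes, at a mean of 177.2 TPM (transcript abundance scaled to length and library size) at 0.1 µM and 215 at 1 µM, and ANKRD33B was the least abundant, at 3.99 and 5.04 TPM.

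The other NF-kappaB genes were read beside NFKBIA. Of 17 tested members of the list of NF-kappaB subunits and feedback genes 1 was called, 12 lay above 0 and the median log2FC was 0.020. TNFAIP3, the deubiquitinase A20, stood at 98.3, 85.2, 97.4 and 96.5 CPM at 0.1 µM and at 122.4, 104.7, 126.8 and 109.8 CPM at 1 µM. These ranges did not overlap either, but the gene was not called in the fit without the block (log2FC 0.30, SE 0.10, edgeR adjusted p = 0.677). With the vial as block and only the 8 libraries it was called, at an edgeR adjusted p of 3.02e-05. RELB, NFKB1 and NFKB2 did not pass in any of these 3 fits, and BCL3 stood at 70.03 ± 3.05 CPM at 0.1 µM and 63.8 ± 3.91 at 1 µM (edgeR adjusted p = 0.772). IL6, a cytokine that NF-kappaB induces, stood at 88.7 to 106.4 CPM at 0.1 µM and at 111.8 to 120.3 CPM at 1 µM, and was not called in the fit without the block but was with the block and 8 libraries (edgeR adjusted p = 0.0037). Of 19 tested chemokines and interleukins 10 lay above 0, and only 1 was called with the block and 8 libraries. Their summed level was 964 to 1080 CPM at 0.1 µM and 953 to 1041 CPM at 1 µM. TNFAIP3 and IL6 were named after their values were seen, so they are no separate check of NFKBIA.

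A further group of called genes codes for scaffold and signalling proteins. NEDD9, a docking protein of focal adhesions, stood at 21.6, 24.6, 24 and 24.5 CPM at 0.1 µM and at 26.1, 33.1, 31.6 and 28.5 CPM at 1 µM. The groups did not overlap, with a log2FC of 0.33 (SE 0.066, edgeR adjusted p = 0.0341). Leaving out any of the 4 libraries at 0.1 µM, or the 1 µM library of vial 2 or 3, ended the call, with adjusted p up to 1 over the alternatives. TUFT1, tuftelin, first described in tooth enamel, stood at 93.3, 93.5, 93.8 and 91.4 CPM at 0.1 µM and at 111.5, 119.9, 115.0 and 110.1 CPM at 1 µM. The 4 libraries at 0.1 µM hardly differed (SD 1.11), and the log2FC was 0.30 (SE 0.045, edgeR adjusted p = 0.00332).

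AVPI1 is named as a transcript that vasopressin induces. It rose from 38.5, 37.4, 39.1 and 43.7 CPM at 0.1 µM to 49.4, 47.0, 49.4 and 48.5 CPM at 1 µM (log2FC 0.29, SE 0.050, edgeR adjusted p = 0.0084). C11orf96, an open reading frame of chromosome 11, rose from 10.6, 10.4, 11.8 and 12.4 CPM to 16.8, 16.1, 16.97 and 15.8 CPM (log2FC 0.54, SE 0.089, edgeR adjusted p = 0.00496). This was the largest log2FC of the 11, and its call was lost in the fit of all 32 libraries and without the 0.1 µM library of vial 2, with adjusted p up to 1. ANKRD33B, a protein with ankyrin repeats, rose from 24.4, 22.1, 21.5 and 24.9 CPM to 30.9, 31.8, 30.0 and 27.0 CPM (log2FC 0.36, SE 0.063, edgeR adjusted p = 0.0084).

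Other calls also rested on single libraries. Without the 0.1 µM library of vial 2 the edgeR adjusted p was 0.057 for C11orf96, 0.0785 for ZNF331, ANKRD33B and AVPI1, and 0.0851 for TSC22D1. Without that of vial 3 it was 0.0654 for ZNF331 and ANKRD33B and 0.056 for AVPI1. TSC22D1 also lost its call without the 0.1 µM library of vial 1 (edgeR adjusted p = 0.0604) or the 1 µM library of vial 2 (0.0602), and ZNF331 without the 1 µM libraries of vials 1 (0.0581) and 2 (0.0674).

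In all 11 called genes the libraries of the 2 concentrations did not overlap, and in all 11 the 1 µM library lay above the 0.1 µM library of its own vial. Over all tested genes, 2.24% had non-overlapping libraries with 1 µM higher and 9.13% were higher in all 4 vials, but the called genes were selected by this contrast and nothing is read from those shares. The size of the difference varied with the vial. Over the 11 genes the median log2 ratio within a vial was 0.351 in vial 1, 0.414 in vial 2, 0.318 in vial 3 and 0.197 in vial 4. Vial 4 had the smallest ratio in 9 of the 11 genes, and vial 2 the largest in 7.

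**Figure D2:**
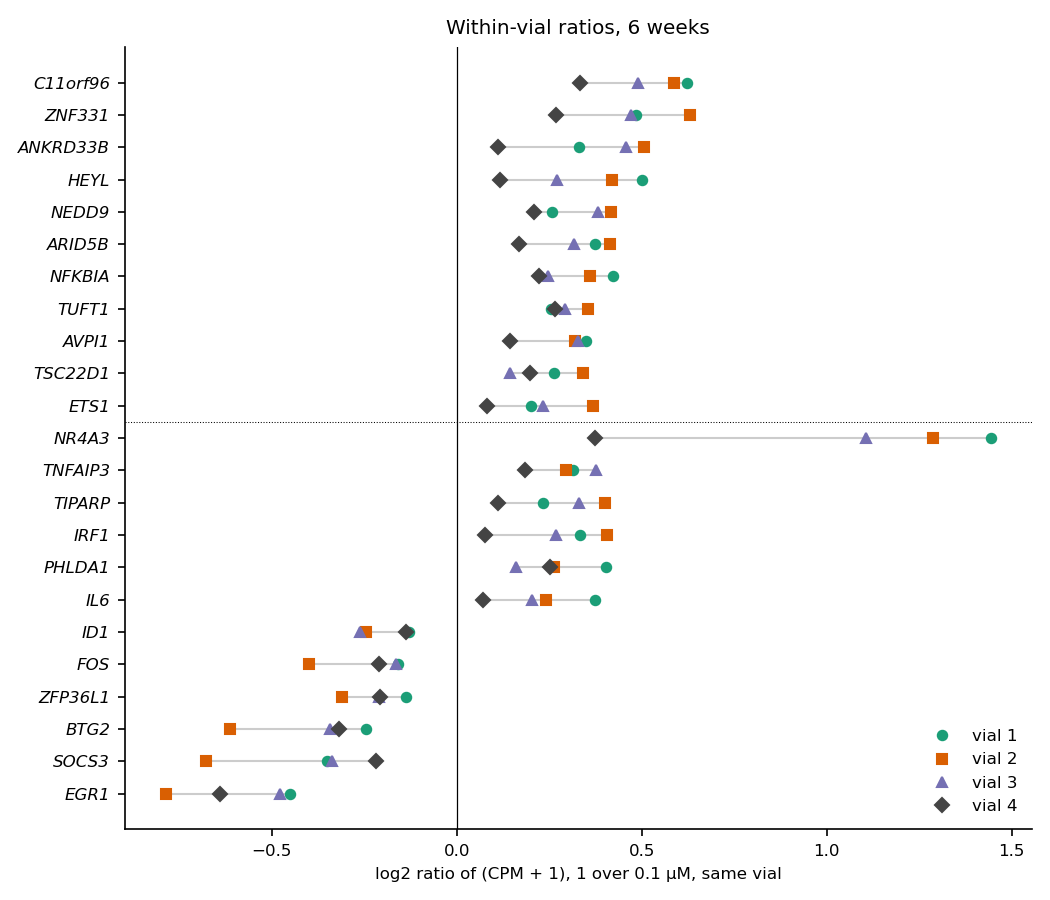
Log2 ratio of (CPM + 1) at 1 over 0.1 µM PFOS within each of the 4 vials after 6 weeks, one row per gene and one symbol per vial, with a grey line from the lowest to the highest. The 11 called genes stand above the dotted line with all ratios above 0; NR4A3 and 11 further uncalled genes stand under it, the last 6 with all ratios below 0.

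The position of the called genes among all 4 concentrations was compared next. The 0.1 µM mean was the lowest of the 4 means in 10 of the 11 genes, and over all tested genes this held for 27.3%, while it was the highest in 26.8%. The called genes had been selected for lying lower at 0.1 than at 1 µM, so these shares are no reference for them and the count is a description. In these 10 genes the means did not rise in steps from the control to 1 µM. ARID5B stood at 130.6 ± 3.45 CPM in the control, 116.4 ± 2.88 at 0.01 µM, 105.0 ± 5.71 at 0.1 µM and 131.1 ± 3.30 at 1 µM (SD, n = 4 each). HEYL stood at 43.2 CPM at 0.01 µM and at 48.1 CPM in the control, above its mean of 44.9 CPM at 1 µM. ANKRD33B was the exception, with means of 23.3 CPM in the control, 22.9 at 0.01 µM and 23.2 at 0.1 µM, and 29.9 at 1 µM.

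The same genes were read against the control, which enters the direct comparison through the estimate of the spread and not as a group compared. The contrasts with the control share the exposed libraries with the direct comparison. At 0.1 µM 7 of the 11 genes were called, all lower than the control, where 345 of 12836 genes (2.69%) were lower. Since the genes were selected for low values in the same 0.1 µM libraries, nothing is read from that share. The log2FC of 0.1 µM over control was −0.50 for C11orf96, −0.44 for HEYL, −0.37 for ZNF331, −0.31 for ARID5B, −0.25 for AVPI1, −0.18 for TUFT1 and −0.16 for TSC22D1. At 1 µM only ANKRD33B was called against the control (log2FC 0.36, SE 0.063, edgeR adjusted p = 0.00391), where 36 genes (0.28%) were called. The libraries of control and 1 µM overlapped in 9 of the 11 genes, the exceptions being NFKBIA and ANKRD33B. At 0.01 µM the log2FC against the control lay between −0.22 for ZNF331 and 0.04 for NFKBIA.

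**Figure D3:**
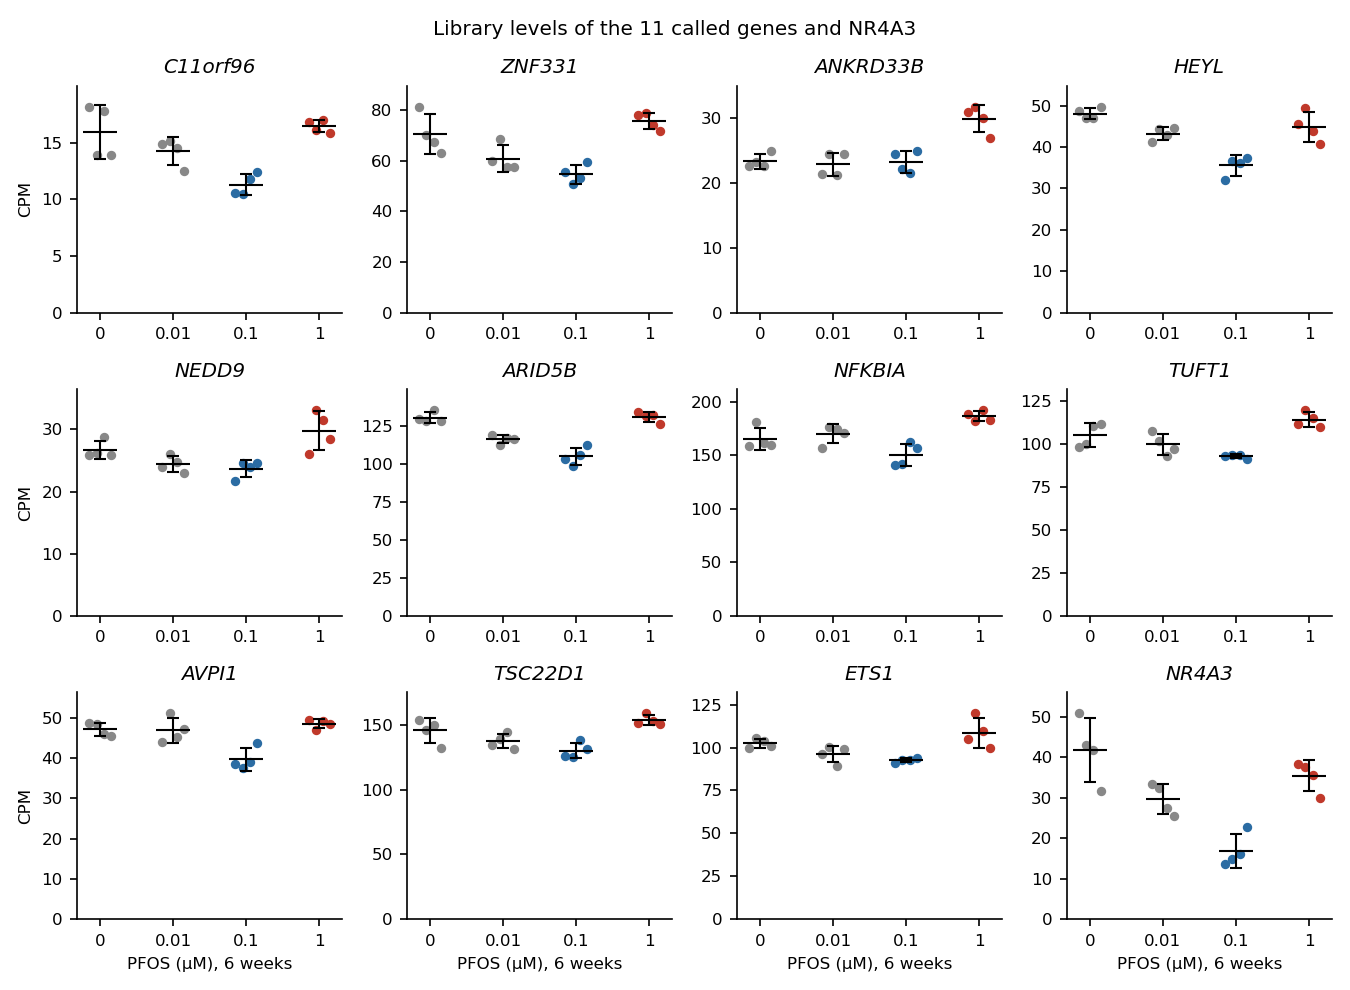
CPM of the 11 called genes and NR4A3 in each library after 6 weeks at 0 (vehicle), 0.01, 0.1 and 1 µM PFOS, with the mean and SD of 4 libraries as black bars. In each panel all 4 red points (1 µM) lie above all 4 blue points (0.1 µM), and except for ANKRD33B the blue points have the lowest mean.

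NR4A3, an orphan nuclear receptor that hormones and growth factors induce quickly, stood much further apart than the called genes but missed the threshold. Its libraries held 13.5, 14.8, 16.1 and 22.9 CPM at 0.1 µM and 38.5, 37.6, 35.7 and 30.0 CPM at 1 µM. The groups did not overlap and the mean at 1 µM was 2.11 times that at 0.1 µM, yet with a log2FC of 1.08 (SE 0.18) the edgeR adjusted p was 0.0509. DESeq2 on the 16 libraries called it (adjusted p = 1.02e-05), as did edgeR without either library of vial 4, in which the within-vial log2 ratio was 0.37 against 1.11 to 1.44 in the other vials. With the vial as block its edgeR adjusted p rose to 0.113 with 16 libraries and 0.358 with 8. Against the control, at 41.9 ± 7.94 CPM, NR4A3 was lower at 0.1 µM (log2FC −1.32, edgeR adjusted p = 0.00385), and at 1 µM its log2FC was −0.24 (edgeR adjusted p = 0.551).

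The other NR4A receptors were nearer to level than NR4A3. NR4A1 stood at 177.8 ± 17.6 CPM at 0.1 µM and 189.9 ± 24.9 at 1 µM, and NR4A2 at 102.7 ± 9.46 and 109.8 ± 2.19 CPM. Both had a log2FC of 0.10, neither was called (edgeR adjusted p = 0.94 and 0.904), and their ranges overlapped. Whether the difference of NR4A3 exceeds theirs was not tested.

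Promoter sequences are shown for genes on which the description above turns. NFKBIA and TNFAIP3 hold the NF-kappaB motif, and AVPI1, NR4A3 and EGR1 hold letters of the cAMP response element. TUFT1 was higher in every fit, and EGR1 stood lower at 1 µM. The sequences are those of RefSeq on GRCh38.p14, which held a promoter for 9 of the 11 called genes, and the first start listed was used. Each run has 120 bases and ends 1 base before the start, except AVPI1 (250 to 131 bases before it) and EGR1 (140 to 21 bases before it). Capitals mark TGACG, the core of a cAMP response element, with TGACGTCA as the full element and CGTCA as the core on the other strand, or the NF-kappaB motif. The order is NFKBIA (minus strand, chr14:35404750-35404869), TNFAIP3 (plus, chr6:137867139-137867258), AVPI1 (minus, chr10:97687372-97687491), NR4A3 (plus, chr9:99821765-99821884), TUFT1 (plus, chr1:151540189-151540308) and EGR1 (plus, chr5:138465339-138465458).
NFKBIA: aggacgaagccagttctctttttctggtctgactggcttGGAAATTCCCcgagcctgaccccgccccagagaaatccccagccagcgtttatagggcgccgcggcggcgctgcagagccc
TNFAIP3: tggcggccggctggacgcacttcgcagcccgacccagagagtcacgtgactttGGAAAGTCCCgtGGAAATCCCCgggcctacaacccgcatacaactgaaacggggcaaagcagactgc
AVPI1: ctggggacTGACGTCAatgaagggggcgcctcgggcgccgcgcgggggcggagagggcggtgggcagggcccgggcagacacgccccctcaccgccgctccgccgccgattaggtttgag
NR4A3: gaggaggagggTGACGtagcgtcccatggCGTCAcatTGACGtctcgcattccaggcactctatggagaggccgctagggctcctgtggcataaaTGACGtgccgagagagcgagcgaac
TUFT1: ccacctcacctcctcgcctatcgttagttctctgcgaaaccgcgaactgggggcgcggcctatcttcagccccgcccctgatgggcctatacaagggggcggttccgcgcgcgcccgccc
EGR1: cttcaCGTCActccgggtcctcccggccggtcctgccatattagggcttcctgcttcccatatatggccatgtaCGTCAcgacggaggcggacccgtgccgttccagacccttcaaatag

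The 250 bases before the start were searched on both strands for TGACGTCA, TGACG, the AP-1 motif TGANTCA, the NF-kappaB motif and the CArG box, where TGACG is contained in TGACGTCA. Of 9 called genes with a promoter, 1 held TGACGTCA (AVPI1), beside 2.9% of 10494 promoters of tested genes. TGACG was found in 3 (ZNF331, HEYL and AVPI1), beside 30% of promoters, and the NF-kappaB motif in 2 (NFKBIA and ANKRD33B), beside 11.6%. The AP-1 motif and the CArG box were found in 0 of the 9, beside 3.74% and 0.915% of promoters. NR4A3 held TGACG 4 times and TNFAIP3 the NF-kappaB motif 2 times. Among genes lower at 1 µM, EGR1 and FOS held TGACG too. EGR1 also held the CArG box, 105 and 83 bases before the start, which is not marked in its sequence above. A match is a run of letters and not a measured binding site.

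Quickly induced genes did not move in one direction. Of 34 tested immediate early genes 0 were called in the fit without the block, 7 were higher and 5 lower at an unadjusted p under 0.05, and the median log2FC was 0.053. With the block and 8 libraries, 1 was higher (IER5, named after its value was seen) and 5 were lower. EGR1, a zinc finger transcription factor, stood at 303.7, 289.9, 383.0 and 409.6 CPM at 0.1 µM and at 222.1, 167.7, 275.0 and 262.7 CPM at 1 µM. It was lower in all 4 vials (as were 8.3% of tested genes) and without overlap (2.13% of tested genes), but the vials differed in level, and the log2FC of −0.58 (SE 0.17) had an edgeR adjusted p of 0.553 without the block, 0.357 with the block and 16 libraries, and 6.56e-05 with the block and 8 libraries. The EGR1 mean was 216.6 ± 36.5 CPM in the control and 240.6 ± 18.4 at 0.01 µM. Against the control EGR1 was called higher at 0.1 µM (log2FC 0.68, edgeR adjusted p = 0.0432). At 1 µM its log2FC over the control was 0.10 (edgeR adjusted p = 0.85).

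FOS, a subunit of AP-1, followed EGR1 in direction, with 436.4 to 499.4 CPM at 0.1 µM and 342.2 to 431.9 CPM at 1 µM, without overlap. BTG2, an antiproliferative early gene, stood at 67.6 ± 4.8 CPM at 0.1 µM and 52.0 ± 7.42 at 1 µM, and was lower in all 4 vials. Neither was called in the fit without the block or with the block and 16 libraries, and both were with the block and 8 libraries (edgeR adjusted p = 0.000814 for FOS and 0.000125 for BTG2). ZFP36L1, which marks AU-rich mRNAs for decay, stood at 213.8 ± 13.99 and 183.9 ± 12.7 CPM (log2FC −0.22, edgeR adjusted p = 0.0509). It narrowly missed the threshold and was called lower under 10 of the 18 alternatives, among them the block with 16 libraries (edgeR adjusted p = 0.00571). SOCS3, the feedback inhibitor of cytokine receptors, stood at 88.8 ± 5.43 and 67.6 ± 8.92 CPM, and was also called lower with the block and 16 libraries (edgeR adjusted p = 0.0382). Control means were 378 CPM for FOS, 50.8 for BTG2, 174.3 for ZFP36L1 and 63.5 for SOCS3. Against the control, ZFP36L1 (edgeR adjusted p = 0.000687) and SOCS3 (0.0158) were called higher at 0.1 µM, while FOS (0.0639) and BTG2 (0.0759) were not. None of these genes was called at 1 µM against the control, with log2FC from 0.035 for BTG2 to 0.091 for SOCS3.

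The genes that the block with 16 libraries added to the 11 were 12 in number, 8 higher and 4 lower. The higher ones were ABL2, PHLDA1, IRF1, SERPINE2, ADAMTS15, RND3, ITPRIP and JAG1. IRF1, the interferon regulatory factor, stood at 43.9 ± 1.66 CPM at 0.1 µM and 53.3 ± 5.63 at 1 µM, and SERPINE2, a protease inhibitor of granulosa cells, at 80.1 ± 4.98 and 94.5 ± 8.11 CPM. PHLDA1, an early gene, stood at 45.5 ± 2.12 and 55.1 ± 2.49 CPM and was, unlike most called genes, also higher at 1 µM than in the control (log2FC 0.35, edgeR adjusted p = 0.00295).

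The lower ones were ZFP36L1, SOCS3, HSPA1B and NPIPA2. HSPA1A and HSPA1B code for nearly identical heat shock proteins, so their counts may be divided between the copies and were summed. The sum lay between 595.1 and 616.5 CPM at 0.1 µM and between 527.8 and 569.4 CPM at 1 µM (exact permutation test, two-sided, p = 0.0286). This is the smallest p the test can give, and any sum without overlap between the concentrations reaches it. HSPA1A and HSPA1B were named after their values were seen, so the p adds no support. Against the control HSPA1A was called lower at 0.1 µM (log2FC −0.13, edgeR adjusted p = 0.0177) and at 1 µM (−0.27, 9.64e-06). HSPA1B was called lower too, at 0.1 µM (log2FC −0.16, edgeR adjusted p = 0.00802) and at 1 µM (−0.30, 4.57e-06). Neither copy was called at 0.01 µM. NPIPA2 is 1 of 7 copies that hardly differ in sequence and held 37, 43, 17 and 52 counts at 0.1 µM and 18, 7, 6 and 21 at 1 µM. The 7 members of the family summed to 126.1 ± 9.48 CPM at 0.1 µM and 124.2 ± 4.36 at 1 µM (exact permutation test, two-sided, p = 0.743), so its difference is uncertain. SULT1A3 and SULT1A4, near-identical sulfotransferase genes, traded counts between libraries, with SULT1A4 between 0 and 22.8 CPM at 0.1 µM, and their sum was 21.3 ± 2.2 CPM at 0.1 µM and 18.2 ± 1.16 at 1 µM without overlap (exact permutation test, two-sided, p = 0.0286).

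The gene lists were read by their counts and medians, beside 11 called genes and a median of −0.00062 over all genes tested. Of the lists with members tested, only those of NF-kappaB and SMAD genes held a called gene, 1 each. In the integrated stress and unfolded protein response 34 of 42 members lay above 0, with a median of 0.049, and 8 were higher and 0 lower at an unadjusted p under 0.05. DDIT3, the stress factor CHOP, stood at 16.7 ± 1.34 CPM at 0.1 µM and 20.7 ± 1.57 at 1 µM, and the chaperone HSPA5 at 813.8 ± 5.57 and 863.9 ± 24.2 CPM (edgeR adjusted p = 0.168 and 0.622). DDIT3 overlaps MARS1 in the annotation. Cytosolic ribosomal protein genes lay above 0 in 75 of 82, within −0.056 and 0.16, with a median of 0.053. Nuclear subunits of the respiratory chain lay above 0 in 49 of 61, with a median of 0.028.

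Genes of cholesterol synthesis and uptake mostly lay below 0, with 4 of 30 members above 0 and a median of −0.065. SREBF2, its master regulator, stood at 364.0 ± 7.74 CPM at 0.1 µM and 343.0 ± 11.5 at 1 µM (edgeR adjusted p = 0.745). Targets of YAP and TEAD lay above 0 in 18 of 24, with a median of 0.055, and ANKRD1, one of them, stood at 74.4 ± 6.70 and 101.4 ± 18.4 CPM (edgeR adjusted p = 0.745). Genes of DNA replication and mitosis had a median of −0.0072 over 50 members, of which 3 were lower and 0 higher at an unadjusted p under 0.05. None of the members of these lists was called in the fit without the block. With the block and 8 libraries, DDIT3, SLC7A5, SLC7A11 and HERPUD1 of the stress list were higher (edgeR adjusted p = 0.0177 for DDIT3), as were ANKRD1, LATS2 and F3 of the YAP and TEAD list (0.0252 for ANKRD1), and SREBF1 of the cholesterol list was lower (edgeR adjusted p = 0.021). These 8 genes were named after their values were seen.

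**Figure D4:**
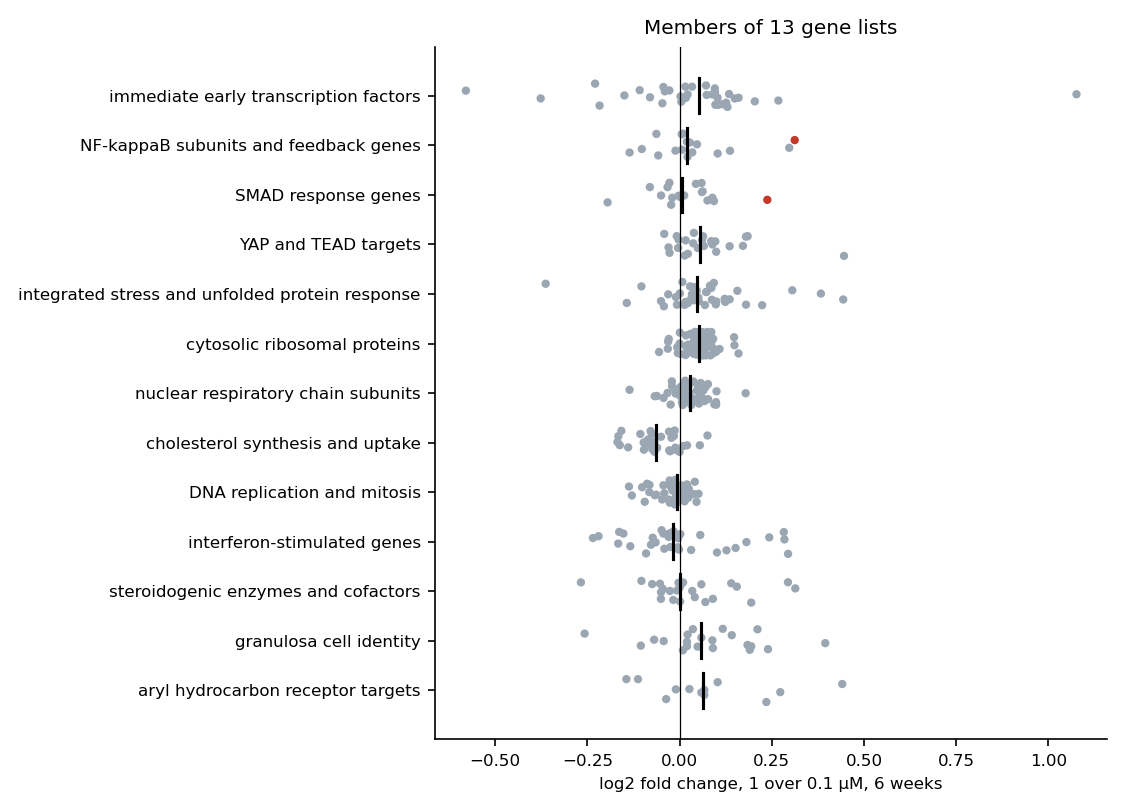
Log2 fold change of 1 over 0.1 µM PFOS after 6 weeks for the tested members of 13 gene lists, one point per gene, with the median of each list as a black bar. The only red points, which mark called genes, are NFKBIA and TSC22D1; the medians lie between −0.065 (cholesterol synthesis and uptake) and 0.063 (targets of the aryl hydrocarbon receptor).

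Genes of hormone synthesis and of granulosa cell identity were read next. Of 25 tested steroidogenic enzymes and cofactors 0 were called and the median log2FC was 0.0013. STAR, which carries cholesterol into mitochondria, stood at 3.76 ± 0.33 CPM at 0.1 µM and 3.92 ± 0.62 at 1 µM, and CYP19A1, the aromatase, had 0 counts in all 8 libraries, which allows up to 3 counts per library. Among granulosa markers GATA4, GATA6 and WT1 were well above the floor (138.2, 101.7 and 61.2 CPM at 0.1 µM), while FOXL2 stood at 1.13 CPM, INHA at 1.07 and NR5A1 at 0.22, and AMHR2 had at most 3 counts. Of 21 tested genes of granulosa cell identity 0 were called, 17 lay above 0 with a median log2FC of 0.059, and 4 were higher and 0 lower at an unadjusted p under 0.05. INHBB, an activin subunit, stood at 4.69 ± 0.15 and 6.17 ± 0.45 CPM without overlap (edgeR adjusted p = 0.6). With the vial as block 1 member was called higher, SERPINE2, with 16 and with 8 libraries. The defining markers of an ovarian granulosa cell were thus only in part present in these 8 exposed libraries.

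Among targets of the aryl hydrocarbon receptor 0 of 12 were called. TIPARP, an ADP-ribosyltransferase that limits the receptor, stood at 92.1 to 99.5 CPM at 0.1 µM and at 107.5 to 121.8 CPM at 1 µM, without overlap (log2FC 0.27, SE 0.075, edgeR adjusted p = 0.443). It was called with the block and 8 libraries (edgeR adjusted p = 0.000814). CYP1B1 stood at 386.1 ± 16.6 and 404.4 ± 14.9 CPM, within the spread of the libraries.

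Transcripts of other cell types were read as a check of the cultures. Liver transcripts that stood at or near 0 in the control and at 0.01 µM of the same time were present at both concentrations compared here. AFP, the fetal albumin-like protein, stood at 1.42 ± 0.37 CPM at 0.1 µM and 1.197 ± 0.40 at 1 µM, AHSG at 1.67 ± 0.31 and 1.26 ± 0.38, ALB at 2.32 ± 0.36 and 2.10 ± 0.20, and APOB at 0.78 ± 0.15 and 0.86 ± 0.31 CPM. Of 8 tested members of the list 0 were called, and the summed level of the 25 listed liver transcripts ranged from 86.5 to 98.1 CPM at 0.1 µM and from 79.9 to 93.9 CPM at 1 µM. After 12 weeks the vehicle controls held such transcripts too, with 25, 38, 270 and 34 counts of ALB in the order of the vials. AFP had 14, 29, 176 and 15 counts in these controls, and AHSG had 18, 25, 239 and 21. At 0.01 µM after 12 weeks ALB had 34, 51, 27 and 33 counts. The cause of their presence was not tested. CD3E, an immune marker, CLDN5, an endothelial marker, and DDX4, an oocyte marker, had 0 counts in all 8 libraries. The epithelial keratins KRT7 and KRT18 stood at 979.6 ± 68.1 and 1884 ± 54.9 CPM at 0.1 µM and at 1136 ± 150 and 2033 ± 55.5 CPM at 1 µM. The summed epithelial list ranged from 7347 to 7960 and from 8065 to 8333 CPM, without overlap. Of its 9 tested members only 4 lay above 0, 0 were called in the fit without the block and the median log2FC was −0.0115, so the sum does not speak for most members. KRT7 was called higher with the block and 8 libraries (edgeR adjusted p = 0.00195). The sums of the YAP and TEAD targets, the ribosomal proteins and the stress and unfolded protein response did not overlap either, with 1 µM higher. The same held for EGF-like ligands and receptors, regulators of G-protein signalling, keratins and the genes named by the study for 6 weeks. The sums of the other lists with values overlapped. The lists were chosen with earlier results of these data known, so nothing is read from these sums. The part of transcripts of other cell types in the difference of the called genes was not tested.

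The same contrast was then read after 12 weeks, in libraries of the same cultures. No gene was called at 1 against 0.1 µM (0%, edgeR, 12742 genes tested), with 984 genes (7.72%) at an unadjusted p under 0.05, and DESeq2 called 0 as well. Of the 11 genes, 5 were higher at 1 µM after 12 weeks, where 48.7% of all tested genes were. C11orf96 had the largest difference at 12 weeks, from 4.31 ± 1.28 CPM at 0.1 µM to 6.95 ± 2.86 at 1 µM, and was the only 1 of the 11 with an unadjusted p under 0.05. ARID5B stood at 124.6 ± 5.53 and 127.7 ± 8.55 CPM, NFKBIA at 130.1 ± 11.9 and 132.7 ± 10.3 CPM, and TUFT1 at 110.2 ± 4.24 and 104.4 ± 2.72 CPM, differences within or near the spread of the libraries.

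The difference between the times was itself tested as an interaction over all 32 libraries. This fit had no term for the vial, although each vial gave libraries at both times. The interaction was called for 0 of 12988 genes (0%), with 946 (7.28%) at an unadjusted p under 0.05, and for 1 gene with the 16 libraries of 0.1 and 1 µM alone. Of the 11 genes, 10 had the larger log2FC at 6 weeks, the exception being C11orf96, and 8 had an unadjusted interaction p under 0.05. The 11 genes were selected by the contrast in the same libraries of 6 weeks, so these counts are a description and nothing is read from them. TUFT1 came closest to a called interaction, with a log2FC 0.37 larger at 6 than at 12 weeks (SE 0.070, edgeR adjusted p = 0.0778). For ARID5B this difference was 0.28 (SE 0.073, edgeR adjusted p = 0.319) and for TSC22D1 it was 0.018 (SE 0.16). A change of these contrasts between 6 and 12 weeks was therefore not shown for any of the 11 genes. NR4A3 stood at 38.7 ± 19.7 and 28.3 ± 5.43 CPM at 12 weeks, with an interaction of 1.52 (SE 0.36, edgeR adjusted p = 0.269).

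**Figure D5:**
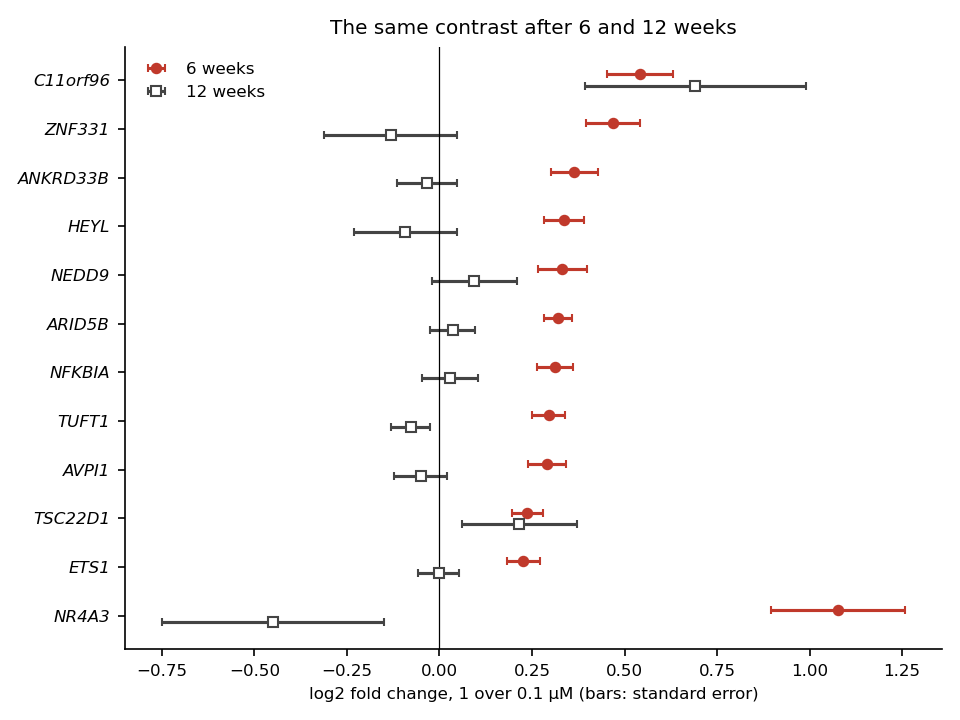
Log2 fold change of 1 over 0.1 µM PFOS after 6 weeks (red circles) and after 12 weeks (open squares) for the 11 called genes and NR4A3, with standard errors as bars. All red circles lie above 0, while of the squares of the called genes 5 lie above 0; NR4A3 and C11orf96 have the widest bars at 12 weeks.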

How the data were processed

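Messenger RNA of HGrC1 cells was sequenced in 32 libraries, 4 in each of 8 groups, and the 16 libraries of 6 weeks entered the comparison. The submitters' processing notes name HISAT2 2.0.4, Bowtie2 2.2.5, RSEM 1.2.8 and GRCh38.p14. The authors deposited expected counts, which RSEM estimates and which need not be whole (7.68% of the values were not), and TPM, scaled to transcript length and library size, both used here; their normalized counts and FPKM were not used. The table has 47137 entries, of which 18583 have values, and no column was without a sample.

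Expected counts were rounded and tested with edgeR 4.0.16 (quasi-likelihood, TMM factors, filterByExpr, R 4.3.3) over the 16 libraries with the contrast 1 minus 0.1 µM and Benjamini-Hochberg adjustment. DESeq2 1.42.0 was an alternative, as were other factors, filters and sets of libraries. CPM were computed from the TMM-scaled totals. Single genes and sums were tested with an exact two-sided permutation test of log2(CPM + 1), with 70 arrangements and a smallest p of 0.0286. The scripts were tested on simulated data.

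All called genes, up to 15, were named, with listed members of the gene lists, and IER5, SLC7A5, SLC7A11, HERPUD1, F3, SREBF1 and 28 further genes were named after their values were seen. The members and lists were chosen with earlier results of these data known. Replicate numbers mark vials, since the labels describe that the cells of each vial were divided into the groups. Deviations from the group means correlated within vials at 0.152, 0.123, −0.135 and 0.111 for vials 1 to 4 (mean 0.0629, against −0.0211 between vials). Replicates of a group differed beyond sampling noise (chi-square per degree of freedom 2.33 to 6.27). A count of 0 allows up to 3 counts per library, for counting error only. FSHR was not analysed here.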

Additional observations from a re-analysis of the deposited data

Results flagged for a closer look

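In 6 of 118 groups of 4 libraries, over 59 named genes, 1 library stood apart from the other 3 by Dixon's ratio, the gap to the nearest library over the whole range, past its 95% limit. Chance gives about 1 in 20 groups, or 5.9 here. At 0.1 µM, ANKRD1 stood at 64.4 CPM in vial 4 against 77.4 to 78.1 in the others (ratio 0.952), TNFAIP3 at 85.2 CPM in vial 2 against 96.5 to 98.3 (ratio 0.86) and IRF1 at 46.3 CPM in vial 3 against 42.7 to 43.3 (ratio 0.836). At 1 µM, FGF1 stood at 3.27 CPM in vial 2 against 1.40 to 1.61 (ratio 0.89), ITLN1 at 1.52 CPM in vial 4 against 0.83 to 0.943 (ratio 0.834) and SULT1A3 at 15.97 CPM in vial 1 against 18.5 to 19.0 (ratio 0.834). None of the 11 called genes is among them.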

How the results depend on the processing

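The direction of the 11 called genes was the same under each of the 18 alternatives. Beside 11 genes higher, 0 lower and 0 of at least 2-fold, the counts were 2, 0 and 0 with 32 libraries, 13, 1 and 0 with 8 libraries, 13, 1 and 0 with RLE factors, 16, 2 and 0 without a filter and 12, 1 and 0 with a mean of at least 10 counts. DESeq2 gave 20, 5 and 2 with 16 libraries and 25, 8 and 3 with 8. With the replicate block of the vial, whose pairing the labels give, they were 19, 4 and 1 with 16 libraries, 57, 19 and 1 with 8 and, chosen after seeing the data, 30, 7 and 1 with the 6 libraries of vials 1, 3 and 4, in which ETS1 lost its call. Leaving out 1 library gave 4 to 18 genes higher, 0 to 2 lower and 0 to 1 of at least 2-fold. The lower count was 2 without the 0.1 µM library of vial 1, and the count of at least 2-fold was 1 without either library of vial 4.

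At 12 weeks the count of 0 became 1 with 8 libraries and 1 with the block, and stayed at 0 to 0 without single libraries. The count of genes whose contrast differed between the times became 1 with 16 libraries and ranged from 0 to 2 without single libraries, with 2 without the 1 µM library of vial 4 at 6 weeks and 1 without the 0.1 µM library of vial 2 at 12 weeks. The sign turned for 4 genes that were not called: APOB without the 1 µM library of vial 3 (log2FC −0.065, range without single libraries −0.065 to 0.34), GOLGA8R with the block and 6 libraries (0.020), and LOC105371206 and TTPA without the 1 µM library of vial 1 (0.0038, range −0.26 to 0.0038, and −0.035, range −0.035 to 0.37). The causes were not tested. All vials come from 1 line, and genes with few counts, such as the liver transcripts, allow only large differences to be seen at this depth.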

Other observations

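MT-ATP8, a mitochondrially encoded subunit of ATP synthase, had a mean of 60.5 ± 11.02 CPM at 0.1 µM and 100 ± 44.1 at 1 µM (SD, n = 4), with an edgeR adjusted p of 0.759, and its gene overlaps MT-ATP6 in the annotation.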
